A study of Mus musculus with 8 samples.

Results

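The genes described here encode the proteins of the mitochondrial ribosome in mouse myofibroblastic hepatic stellate cells treated with an inhibitor of O-GlcNAc transferase. They are the 78 genes of 40840 listed whose symbol is Mrpl or Mrps followed by a number and at most one letter, a choice by name that used no measured value. Each of the 78 passed the filter on low counts, which 19963 genes of the tables did. Primary stellate cells came from male C57BL/6J mice aged 15 to 18 weeks and were sorted by the fluorescence of their stored retinol, and 7 days of culture turned them into myofibroblasts, termed pMF-HSCs. The control group received the vehicle DMSO (n = 4) and the OGTi group 50 µM of OSMI-1 over 24 h (n = 4). OSMI-1 blocks the enzyme that attaches the sugar O-GlcNAc to proteins of the nucleus, cytosol and mitochondria. All cells were wild type, no quiescent cells were in the comparison, and the study paired each treated library with the control library of the same replicate number. How many mice went into a culture is not given in the sources used here.

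The mitochondrial ribosome, or mitoribosome, translates the few proteins that mitochondrial DNA encodes, which are all subunits of the respiratory chain and ATP synthase. Its ribosomal RNAs are transcribed from mitochondrial DNA, while every one of its proteins is encoded in the nucleus, made in the cytosol and imported. Some of these proteins have a counterpart in bacterial ribosomes and others are found only in mitochondria. The large subunit joins amino acids and carries the exit tunnel, the small subunit decodes the mRNA, and the names Mrpl and Mrps follow this division with a few exceptions.

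Values are given as scaled counts, which are RSEM's estimated read counts per gene brought to a common library size, or as TPM, a level that also accounts for transcript length. Library totals ran from 30068876 to 37372420 expected counts, of which the members took 0.291% to 0.516%. The 10 most abundant genes held 6.73% to 7.76% of the control counts and 10.9% to 15.8% of the OGTi counts. All 10 markers of myofibroblastic stellate cells exceeded 1 TPM in every library, and their sums overlapped between the groups. Of these, Pdgfrb (56.3 to 171 TPM in the control, 10.9 to 37.4 in the OGTi group, adjusted p = 0.00154) and Lrat (6.51 to 18.0 and 2.3 to 2.94 TPM, adjusted p = 0.00232) were lower after OGTi, and the other 8 did not pass the test, with log2 fold changes from -0.85 (Col1a1) to 0.53 (Tagln). OGTi replicate 1 stood apart in Col1a1, whose level was 56.2 TPM there and 464 to 618 TPM after OGTi in replicates 2 to 4. Summed hepatocyte markers reached 1.10 TPM at most, lymphocyte markers 0.860 TPM and macrophage markers 16.9 TPM. Endothelial markers summed to 0.890 to 2.35 TPM in the control and 0.260 to 0.8 in the OGTi group, of which Tek fell (0.560 to 1.59 and 0.0300 to 0.230 TPM, adjusted p = 0.00235) and Pecam1, Cdh5, Kdr and Stab2 did not pass the test. Cholangiocyte markers summed to 86.8 to 139 and 46.7 to 78.9 TPM, nearly all from Krt19 (85.1 to 139 and 46.5 to 72.9 TPM, adjusted p = 0.0462), with Epcam at or below 0.790. These markers and the share of the top genes moved with the groups, and their part in the results was not tested. In such bulk samples, fewer cells of a type and less RNA per cell cannot be told apart. Replicate 1 and replicate 4 stood apart for the members, so that results resting on them are given with and without those libraries.

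Promoters of ribosomal protein genes of mitochondria are known for binding sites of the nuclear respiratory factors NRF1 and GABP, so the windows from 250 bases before to 30 after the RefSeq start were searched. Of the 78 members, 69 were in the RefSeq table of the GRCm38.p6 build, among them 5 of the 7 members called changed. The strings searched on both strands were GCGC, any base and TGCGC in a row for NRF1, CCGGAAG for the ETS factor GABPA, AAGATGG for YY1 and CACGTG for the E-box bound by MYC, and none of them contains another. The ETS string stood in 24 of 69 member windows (34.8%) against 9.48% of the windows of all 27025 genes, and the NRF1 string in 13 (18.8% against 4.98%). YY1 matched 10 windows (14.5% against 6.47%) and the E-box 5 (7.25% against 7.71%). These are matches of letters and say nothing of binding in these cells.

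The windows of the 5 called members in that table, 4 that fell after OGTi and Mrps6, which rose, are printed with the matched strings in capitals. Each matched its gene's own chromosome in GRCm39 exactly once, at the position given, and other chromosomes were not searched. The ETS string starts 55 bases before the start in Mrpl27 and at 17 and 2 bases before it in Mrpl58, the E-box starts 162 bases before it in Mrpl37, and none of the 4 strings is in the windows of Mrps5 and Mrps6. The RefSeq start lies 33 bases from the outermost GENCODE start in Mrpl27 and 22 in Mrpl58, but 211 bases inside the GENCODE gene in Mrps5, 259 in Mrps6 and 497 in Mrpl37, so that most or all of these 3 windows lies within the gene as GENCODE places it.
Mrpl27 (chr11:94544367-94544646, plus strand): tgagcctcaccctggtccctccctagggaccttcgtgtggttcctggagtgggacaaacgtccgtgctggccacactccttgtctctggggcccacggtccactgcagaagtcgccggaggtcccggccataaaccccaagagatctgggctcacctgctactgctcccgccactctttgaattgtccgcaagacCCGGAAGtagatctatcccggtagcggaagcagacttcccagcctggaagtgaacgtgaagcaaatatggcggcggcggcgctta
Mrpl58 (chr11:115294328-115294607, plus strand): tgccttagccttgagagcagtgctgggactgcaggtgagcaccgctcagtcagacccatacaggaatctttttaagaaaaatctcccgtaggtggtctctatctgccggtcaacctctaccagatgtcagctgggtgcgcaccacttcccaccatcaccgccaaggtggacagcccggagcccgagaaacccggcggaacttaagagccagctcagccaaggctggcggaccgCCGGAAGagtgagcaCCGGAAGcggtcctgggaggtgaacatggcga
Mrpl37 (chr4:106924034-106924313, minus strand): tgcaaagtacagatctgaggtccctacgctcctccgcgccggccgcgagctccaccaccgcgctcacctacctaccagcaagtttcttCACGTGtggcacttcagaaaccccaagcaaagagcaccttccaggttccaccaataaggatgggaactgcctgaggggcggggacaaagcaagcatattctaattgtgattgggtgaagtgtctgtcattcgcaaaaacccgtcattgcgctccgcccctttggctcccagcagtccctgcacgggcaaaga
Mrps5 (chr2:127429096-127429375, plus strand): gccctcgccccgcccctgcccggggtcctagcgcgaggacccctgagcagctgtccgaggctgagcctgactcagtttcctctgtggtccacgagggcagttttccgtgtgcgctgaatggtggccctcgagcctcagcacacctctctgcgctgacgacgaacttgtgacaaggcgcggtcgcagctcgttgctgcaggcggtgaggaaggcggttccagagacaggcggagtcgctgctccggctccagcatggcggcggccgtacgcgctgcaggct
Mrps6 (chr16:91854974-91855253, plus strand): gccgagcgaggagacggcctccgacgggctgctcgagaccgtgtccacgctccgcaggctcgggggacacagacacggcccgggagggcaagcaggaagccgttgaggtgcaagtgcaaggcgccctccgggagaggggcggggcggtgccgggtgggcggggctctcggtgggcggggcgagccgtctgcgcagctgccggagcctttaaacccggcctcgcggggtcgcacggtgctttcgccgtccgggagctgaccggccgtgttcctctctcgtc

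After OGTi, 6 of the 78 members fell, 1 rose and 71 did not pass the test in edgeR's quasi-likelihood test (called at a Benjamini-Hochberg adjusted p up to 0.05). In percent, 7.69% of members fell, where 10.2% of all genes tested did, and 1.28% rose, where 8.13% of all genes did. In both directions together 8.97% of members were called, under the 18.4% of all genes. Without adjustment 18 of the 78 members had p under 0.05, and 31.8% of all genes did. The changes were small: the log2 fold change lay within 0.25 of 0 in 43 members, within 0.5 in 59 and within 1 in 76, with a median SE of 0.22. The median over the members was -0.041 with 35 values above 0 and 43 below, against 0.0053 over all genes. Its sign changed to 0.085 with upper-quartile scaling and 0.0066 with DESeq2, where the medians over all genes were 0.13 and 0.050. Without replicate 2 or replicate 4 it was 0.031 and 0.028, against 0.020 and -0.049 over all genes. The scaled counts of the groups did not overlap in 11 members that were lower and 3 that were higher in the OGTi group, while 12.0% and 11.5% of all genes showed this. All 4 pairs moved the same way in 25 of 78 members, where 40.9% of all genes did.

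**Figure D1:**
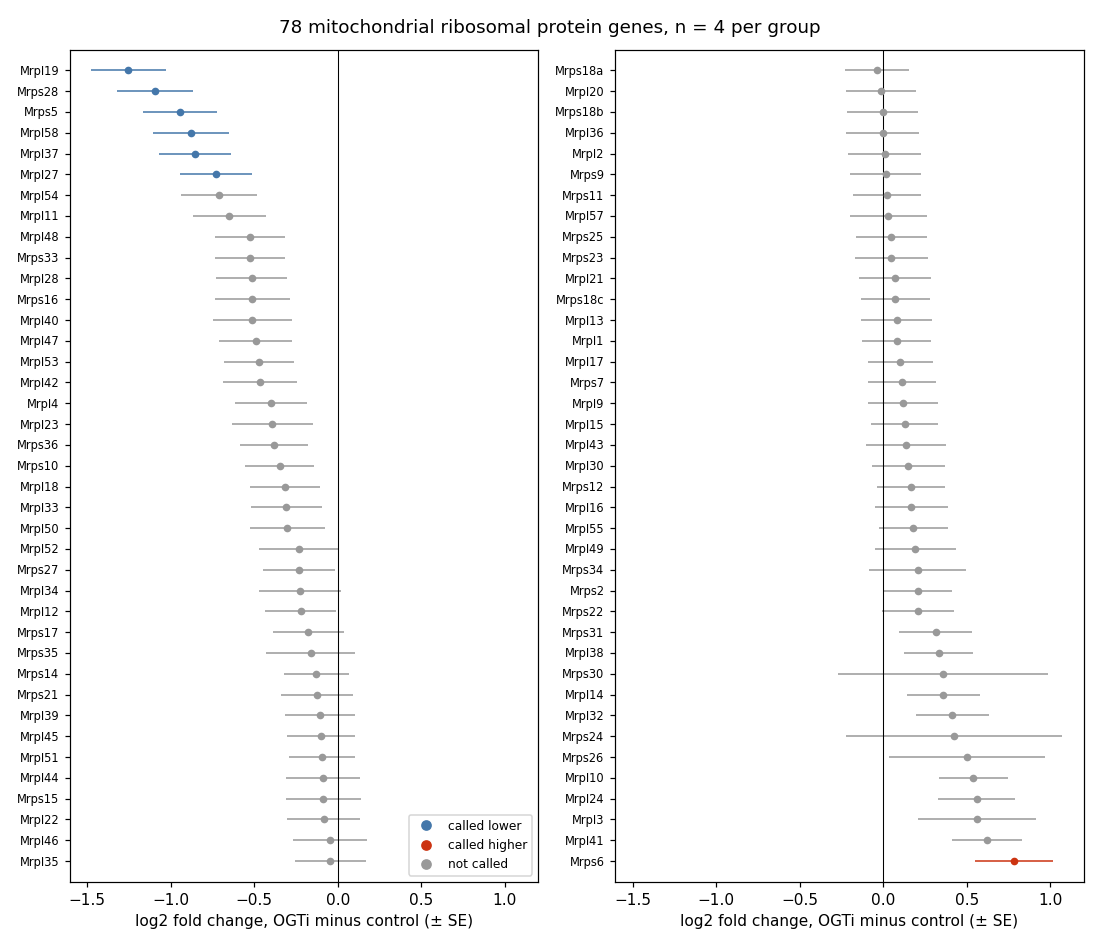
Log2 fold change of each of the 78 members, OGTi minus control, on the horizontal axis with its SE as the bar, ordered from the lowest to the highest. The 6 members called lower (blue) run from -1.25 to -0.73, Mrps6 (red) lies at 0.78, and the long bars of Mrps24 and Mrps30 belong to genes low in control replicate 4.

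Mrpl19, a protein of the large subunit with a bacterial counterpart (gene at chr6:81934832-81942943, minus strand of GRCm39), fell the most. It gave 2141, 1823, 1668 and 1955 scaled counts in control replicates 1 to 4 and 1078, 764, 812 and 587 in OGTi replicates 1 to 4. Every OGTi library was below every control library, the lowest being OGTi replicate 4, and the log2 fold change was -1.25 ± 0.22 (SE, adjusted p = 0.00424). Mrps28, a protein of the small subunit (gene at chr3:8865093-8988978, minus strand), gave 1339, 1167, 1076 and 1354 scaled counts in control replicates 1 to 4 and 794, 538, 562 and 455 in OGTi replicates 1 to 4. Its groups were separated as well, and the log2 fold change was -1.09 ± 0.23 (adjusted p = 0.00891). These were the only members that passed the test whichever replicate was left out. Without replicate 1 the values were -1.34 (adjusted p = 0.00857) for Mrpl19 and -1.21 (0.0124) for Mrps28. Without replicate 4 they were -1.08 (adjusted p = 0.0265) and -0.92 (0.0499), and without both replicates -1.12 (adjusted p = 0.0113) and -1.003 (0.0226).

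Mrps5, which lines the channel where mRNA enters the small subunit (gene at chr2:127429135-127448789, plus strand), gave 1395, 1402, 1043 and 1493 scaled counts in control replicates 1 to 4 and 987, 747, 473 and 635 in OGTi replicates 1 to 4. All OGTi values lay under all control values, with OGTi replicate 3 the lowest (log2 fold change -0.94 ± 0.22 SE, adjusted p = 0.0159). The log2 fold change was -1.09 without replicate 1 (adjusted p = 0.0123) and -0.84 without replicate 4 (adjusted p = 0.0755). Mrpl58, a peptidyl-tRNA hydrolase that is built into the large subunit and frees stalled chains (chr11:115294556-115303502, plus strand), gave 2077, 1892, 1695 and 1801 scaled counts in control replicates 1 to 4 and 1451, 1096, 991 and 660.5 in OGTi replicates 1 to 4. The groups did not overlap (log2 fold change -0.88 ± 0.23 SE, adjusted p = 0.0238), and the change was -0.9999 without replicate 1 (adjusted p = 0.0215) and -0.68 without replicate 4 (adjusted p = 0.104). Without both replicates Mrps5 and Mrpl58 passed the test again, at -0.9988 (adjusted p = 0.0218) and -0.76 (0.0444).

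Mrpl37, a large-subunit protein found only in mitochondria (chr4:106912099-106924560, minus strand), gave 5189.8, 4233, 3973 and 4346 scaled counts in control replicates 1 to 4 and 3309, 2555, 2569 and 1621 in OGTi replicates 1 to 4. The OGTi libraries were lower in every pair, most of all in pair 4 (log2 fold change -0.86 ± 0.22 SE, adjusted p = 0.0212). Mrpl27, the counterpart of the bacterial L27 that reaches towards the tRNAs at the base of the central protuberance (chr11:94544584-94552984, plus strand), gave 2826, 2512, 2567 and 2488 scaled counts in control replicates 1 to 4 and 1979, 1652, 1736 and 1057 in OGTi replicates 1 to 4. It was separated between groups too (log2 fold change -0.73 ± 0.22 SE, adjusted p = 0.0409). Without replicate 4 the calls were lost, at -0.66 (adjusted p = 0.0902) for Mrpl37 and -0.55 (0.157) for Mrpl27. Without replicate 1 they were -0.92 (0.0261) and -0.80 (0.0387). Mrps5, Mrpl58, Mrpl37 and Mrpl27 also lost their calls without replicate 2 or replicate 3, with adjusted p-values from 0.05002 to 0.128, while the log2 fold changes without replicate 2 and without replicate 3 were -0.93 and -0.88 for Mrps5, -0.88 and -0.91 for Mrpl58, -0.87 and -0.93 for Mrpl37 and -0.74 and -0.78 for Mrpl27.

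Mrps6, the small-subunit counterpart of bacterial S6 (chr16:91854965-91909592, plus strand), was the one member that rose. It gave 2282, 3228, 2906 and 3487 scaled counts in control replicates 1 to 4 and 6576, 4555, 4011 and 5469.8 in OGTi replicates 1 to 4. All OGTi libraries exceeded all control libraries, the highest OGTi value and the lowest control value both coming from replicate 1 (log2 fold change 0.78 ± 0.23 SE, adjusted p = 0.0416). The call was lost without any one of the replicates, at 0.54 without replicate 1 (adjusted p = 0.0622), 0.91 without replicate 2 (0.0637), 0.89 without replicate 3 (0.0872) and 0.84 without replicate 4 (0.0896). Mrps6 shares 404 exonic bases on the same strand with Slc5a3, which encodes a myo-inositol transporter, and how reads of these bases were divided was not tested. Slc5a3 itself gave 1413, 1017, 1979 and 2025 scaled counts in the control against 635, 1496, 1639.8 and 2125 in the OGTi libraries, with groups that overlapped (log2 fold change -0.19 ± 0.28, adjusted p = 0.693).

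**Figure D2:**
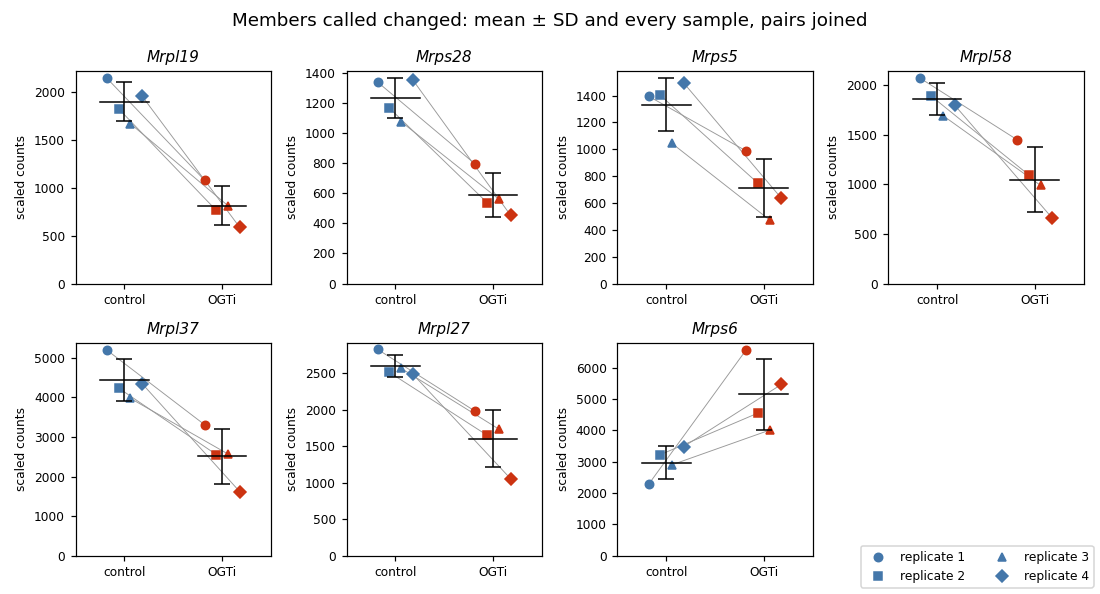
Scaled counts (vertical axis, from 0) of the 7 called members in each library of the control (blue) and OGTi (red) groups, with the mean and SD in black and grey lines joining libraries of the same replicate number. The groups do not overlap in any of the 7 panels, and OGTi replicate 4 (diamond) is the lowest OGTi value in Mrpl19, Mrps28, Mrpl58, Mrpl37 and Mrpl27.

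By subunit, and beside the 10.2% of all genes that fell and 8.13% that rose, 4 of 51 large-subunit members fell (median log2 fold change -0.049), and of 26 small-subunit members 2 fell and 1 rose (median 0.019). Without replicate 1 these medians were -0.16 and -0.095, and without replicate 4 both turned sign, to 0.044 and -0.0079. The large-subunit count includes Mrps18a and Mrps30, which sit in that subunit despite their names. The 46 members that take the place of a bacterial ribosomal protein had a median of 0.0032 with 4 lower and 1 higher, and the 31 with a place of their own in the mitoribosome, among them Mrps18a and Mrps18b, -0.091 with 2 lower. The median of the former was -0.13 without replicate 1 and 0.079 without replicate 4, and that of the latter -0.16 without replicate 1 and 0.0077 without replicate 4. These differences between groups of members were not tested.

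At the stalks of the large subunit, where translation factors dock and spent tRNA leaves, the 4 members moved in different ways. None passed the edgeR test reported above. DESeq2 called Mrpl10 higher (adjusted p = 0.0393) and Mrpl11 lower (0.0303), beside 11.9% and 12.4% of all genes. With the trend of fold change over gene length removed, edgeR called Mrpl10 higher (adjusted p = 0.0361). In limma on log2(TPM + 1), Mrpl11 and Mrpl12 were called lower (beside 17.3% of all genes). Mrpl10, which anchors the L7/L12 stalk, gave 3239.7, 3321, 2948 and 3599 scaled counts in control replicates 1 to 4 and 6473, 3840.4, 4270.5 and 4815 in OGTi replicates 1 to 4. All OGTi values were above all control values, yet the adjusted p was 0.1005 (log2 fold change 0.54 ± 0.21, or 0.39 without replicate 1 and 0.59 without replicate 4). Mrpl11, at the base of the same stalk, showed the opposite order, with 1464, 1255, 1295 and 1340.2 scaled counts in the control and 1174, 855, 796 and 657 in the OGTi group (log2 fold change -0.65 ± 0.22 SE, adjusted p = 0.0656). It passed the test without replicate 1 (-0.76, adjusted p = 0.0403) and not without replicate 4 (-0.51, 0.219). Mrpl12, the stalk protein that contacts the factors, gave 3484, 3719.8, 2535 and 3197 scaled counts in the control and 3837, 2981, 2449.7 and 2018 in the OGTi group, with overlapping groups (log2 fold change -0.22 ± 0.21 SE, adjusted p = 0.522, or -0.34 without replicate 1 and -0.065 without replicate 4). Mrpl1 of the L1 stalk, through which the used tRNA departs, gave 1156, 762, 1005 and 1022 scaled counts in the control and 1222, 841, 1165 and 946 in the OGTi group (log2 fold change 0.082 ± 0.21 SE, adjusted p = 0.834, or 0.084 without replicate 1 and 0.16 without replicate 4). Its controls alone spanned more than the difference between the groups.

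Near the peptidyl transferase centre, where peptide bonds form, Mrpl2 gave 2783, 2454, 2249.6 and 2401 scaled counts in the control and 3683, 2487, 2442 and 1688 in the OGTi group (log2 fold change 0.0095 ± 0.22 SE, adjusted p = 0.983, or -0.12 without replicate 1 and 0.19 without replicate 4). The OGTi libraries lay on both sides of the controls, replicate 1 above and replicate 4 below. Mrpl3 gave 1955, 1776, 1429 and 443 scaled counts in the control and 2467, 1463, 1667 and 1881 in the OGTi group. Control replicate 4 was far below the other controls, and the log2 fold change of 0.56 ± 0.35 (adjusted p = 0.309) became 0.11 without replicate 4 (adjusted p = 0.826).

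The 8 members at the exit tunnel and its mouth, where the new chain leaves towards the inner membrane, had log2 fold changes from -0.49 to 0.56 (median -0.10, -0.24 without replicate 1 and 0.026 without replicate 4). Mrpl4 gave 3426, 3741, 2860.1 and 3583 scaled counts in the control and 3693, 2664, 2142 and 2056 in the OGTi group, lower in 3 of 4 pairs (log2 fold change -0.40 ± 0.22 SE, adjusted p = 0.235, or -0.57 without replicate 1 and -0.25 without replicate 4). Mrpl23 gave 1199, 1156, 1211 and 1223 scaled counts in the control and 1449, 876, 825 and 663 in the OGTi group (log2 fold change -0.39 ± 0.24 SE, adjusted p = 0.304). In Mrpl23 the controls were nearly level and OGTi replicate 1 stood above them, the other OGTi libraries below, and the log2 fold change was -0.61 without replicate 1 and -0.22 without replicate 4 (adjusted p = 0.0785 and 0.655). Mrpl24 went the other way in all 4 pairs, with 1086, 1114, 1239 and 1326 scaled counts in the control and 2364, 1282, 1907 and 1626 in the OGTi group (log2 fold change 0.56 ± 0.23 SE, adjusted p = 0.123, or 0.37 without replicate 1 and 0.66 without replicate 4). Its lowest OGTi value lay under the highest control value. Mrpl44, which has a ribonuclease III-like fold, gave 1274, 1337, 1170.4 and 1231 scaled counts in the control and 1702, 1138, 1021 and 966 in the OGTi group (log2 fold change -0.091 ± 0.22 SE, adjusted p = 0.8285, or -0.26 without replicate 1 and 0.0077 without replicate 4). Mrpl45, which faces the membrane at the tunnel mouth, gave 3443, 2759.5, 2698 and 2985 scaled counts in the control and 3209, 2851, 2996 and 2111 in the OGTi group (log2 fold change -0.10 ± 0.20 SE, adjusted p = 0.790, or -0.10 without replicate 1 and 0.044 without replicate 4). Neither Mrpl44 nor Mrpl45 differed beyond the spread of its libraries. Of the 8 members of the central protuberance, which contacts the tRNAs and the small subunit, edgeR called only Mrpl27 (12.5%, beside 18.4% of all genes). In limma on log2(TPM + 1), Mrpl18, Mrpl27, Mrpl40 and Mrpl48 were called lower (beside 17.3% of all genes). The median log2 fold change of the 8 was -0.27 with 6 of 8 values below 0 (-0.45 without replicate 1 and -0.14 without replicate 4). Mrpl38 of the protuberance was higher in all 4 pairs, with 1646, 1469, 1366 and 1747 scaled counts in the control and 2661, 1636, 1694 and 1973 in the OGTi group (log2 fold change 0.33 ± 0.21 SE, adjusted p = 0.305, or 0.22 without replicate 1 and 0.40 without replicate 4).

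In the small subunit, Mrps12 at the decoding centre, the counterpart of the bacterial protein that sets reading accuracy, gave 2467, 2532, 2389 and 2285 scaled counts in the control and 3410.3, 2599.7, 2833 and 2155 in the OGTi group (log2 fold change 0.17 ± 0.20 SE, adjusted p = 0.630, or 0.068 without replicate 1 and 0.26 without replicate 4). Mrps7 gave 2949.9, 2476, 2365 and 2573 scaled counts in the control and 3834, 2296, 2880.1 and 2396 in the OGTi group (log2 fold change 0.11 ± 0.20 SE, adjusted p = 0.758, or 0.026 without replicate 1 and 0.20 without replicate 4), and Mrps2 gave 1492, 1455, 1413 and 1894 scaled counts in the control and 2034, 1601, 1649.7 and 1926 in the OGTi group (log2 fold change 0.21 ± 0.20 SE, adjusted p = 0.531, or 0.13 without replicate 1 and 0.28 without replicate 4). OGTi replicate 1 was the highest library of all 8 in these genes, and the groups overlapped. Mrps16 was lower in all 4 pairs, with 1269, 1324, 1171 and 1131 scaled counts in the control and 1213, 879, 829 and 609 in the OGTi group (log2 fold change -0.51 ± 0.22 SE, adjusted p = 0.146, or -0.66 without replicate 1 and -0.37 without replicate 4). Mrps22 gave 1719, 1323, 1196 and 1717 scaled counts in the control and 2475, 1332, 1609 and 1575 in the OGTi group (log2 fold change 0.21 ± 0.22 SE, adjusted p = 0.557, or 0.11 without replicate 1 and 0.33 without replicate 4). Mrps27, which holds RNA-binding pentatricopeptide repeats, gave 2757, 1919.7, 1769.8 and 2287 scaled counts in the control and 2307, 1868, 1880.3 and 1386 in the OGTi group (log2 fold change -0.23 ± 0.22 SE, adjusted p = 0.516, or -0.22 without replicate 1 and -0.058 without replicate 4). None of these genes passed the edgeR test reported above. With the trend of fold change over gene length removed, Mrps16 was called lower (adjusted p = 0.0248), as it was in limma on TPM.

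Mammals have 3 proteins related to the bacterial S18. Mrps18a, which lies in the large subunit, gave 4116, 3139, 3179.6 and 3474 scaled counts in the control and 4054, 2928, 3660.3 and 2953 in the OGTi group (log2 fold change -0.038 ± 0.19, or -0.042 without replicate 1 and 0.039 without replicate 4). Mrps18b gave 3257, 2994, 2682 and 3387 scaled counts in the control and 4510.2, 2458, 2694 and 2939 in the OGTi group (-0.0040 ± 0.21, or -0.16 without replicate 1 and 0.075 without replicate 4), and Mrps18c, the one that takes the place of S18 in the small subunit, gave 1647, 1500.2, 1339.8 and 1261 scaled counts in the control and 1866, 1476, 1648 and 1128 in the OGTi group (0.074 ± 0.21, or 0.040 without replicate 1 and 0.16 without replicate 4). All of them had overlapping groups and adjusted p-values of 0.921, 0.993 and 0.852. Mrps36, which despite its symbol is known as a component of the 2-oxoglutarate dehydrogenase complex and no ribosomal protein, gave 1313, 1239.9, 1224 and 1277 scaled counts in the control and 1132, 966, 945 and 852 in the OGTi group. Its OGTi libraries were all under its controls by a small margin (log2 fold change -0.38 ± 0.21 SE, adjusted p = 0.233, or -0.44 without replicate 1 and -0.30 without replicate 4).

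Of the 71 members that did not pass the test, 11 had a log2 fold change of the other sign without replicate 1 and 16 without replicate 4. Among them, Mrpl54, Mrpl11 and Mrpl41 had the largest changes. Mrpl54, of the large subunit, gave 1836, 1809.8, 1949 and 1642 scaled counts in the control and 1657, 978, 1132 and 811 in the OGTi group (log2 fold change -0.71 ± 0.23 SE, adjusted p = 0.0540). OGTi replicate 1 overlapped the controls, and Mrpl54 passed the test without that replicate (-0.89, adjusted p = 0.0184) and without replicates 1 and 4 (-0.81, 0.0349). Mrpl54 did not pass without replicate 4 alone (-0.595, adjusted p = 0.1797), without replicate 2 (-0.623, 0.1623) or without replicate 3 (-0.684, 0.2016). Mrpl41, also of the large subunit, was higher in every OGTi library, with 1689.6, 1746, 1549 and 1399 scaled counts in the control and 3138, 2195, 2702 and 1924 in the OGTi group (log2 fold change 0.62 ± 0.21 SE, adjusted p = 0.0648, or 0.53 without replicate 1 and 0.69 without replicate 4). The smallest changes were those of Mrpl36, Mrps18b and Mrpl2, and Mrpl36 gave 1645, 1747, 1614 and 1643 scaled counts in the control and 2227, 1666, 1619.9 and 1257 in the OGTi group (-0.0031 ± 0.22, or -0.15 without replicate 1 and 0.14 without replicate 4).

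Some members were low in 1 control library. Control replicate 4 lay under 0.7 of the mean of the other controls in 7 members (8.97%) and under 0.3 of it in 5 (6.41%). Among the 7612 genes with a mean at least as high as the lowest member, the shares were 16.4% and 4.02%. Mrps30, of the large subunit, gave 1497, 1797, 1672 and 61.7 scaled counts in the control and 1361, 1166, 1139 and 829 in the OGTi group. Mrps24, at the mRNA entry of the small subunit, gave 1356, 1745, 1247 and 43.4 scaled counts in the control and 1741, 1194, 641 and 598 in the OGTi group. In both, control replicate 4 was far under all other libraries while OGTi replicate 4 was not. Mrps26 gave 1288, 1461, 1307 and 159.9 scaled counts in the control and 1870.05, 1059, 963 and 1018 in the OGTi group. Mrps34, which is known to stabilise the small rRNA, gave 1218, 1608, 1605 and 336 scaled counts in the control and 1472, 1266, 1299.9 and 799 in the OGTi group. Mrps35 gave 502, 591, 469.6 and 268 scaled counts in the control and 610.4, 439.99, 264 and 335 in the OGTi group. All 3 were lowest in control replicate 4 among the controls, though OGTi replicate 3 was lower still in Mrps35. Mrps15, the counterpart of bacterial S15, gave 1477, 1454, 1282 and 751 scaled counts in the control and 1798, 1189, 913 and 830.5 in the OGTi group, the mildest drop of the 7, which with Mrpl3 above make up the set. Mrps24, Mrps26 and Mrps35 were chosen for this after their values were seen. Mrps24 shares 226 exonic bases on the same strand with Urgcp, Mrps15 shares 230 with Oscp1 and Mrps34 shares 1110 with Nme3.

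With replicate 4 the log2 fold changes of Mrps30, Mrps24, Mrps26 and Mrps34 were 0.36 ± 0.63, 0.43 ± 0.65, 0.50 ± 0.47 and 0.21 ± 0.29. Without it they were -0.43, -0.37, -0.11 and -0.11, with adjusted p-values of 0.299, 0.480, 0.843 and 0.815. The sign thus turned in all 4 genes, though no value passed the test with or without the replicate. Mrps15 and Mrps35 stayed below 0, at -0.087 and -0.16 with and -0.15 and -0.31 without replicate 4.

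**Figure D3:**
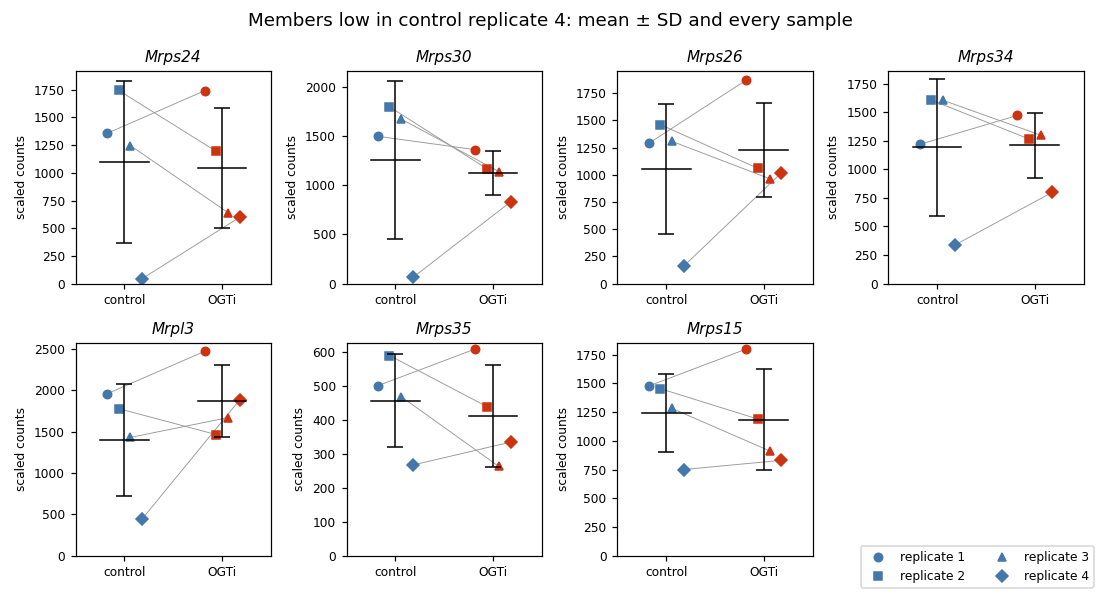
Scaled counts (vertical axis, from 0) of the 7 members in which control replicate 4 lay under 0.7 of the mean of control replicates 1 to 3, by group, with the mean and SD in black and lines joining replicate numbers. Control replicate 4 (blue diamond) falls to 43.4 in Mrps24 and 61.7 in Mrps30, where the line of pair 4 climbs against those of pairs 2 and 3.

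The members' differences shifted from pair to pair. Differences were taken in log2 CPM, a count relative to its library's size after edgeR's TMM scaling. Their median was 0.28 in pair 1, -0.22 in pair 2, 0.0056 in pair 3 and -0.35 in pair 4. OGTi exceeded control in 54, 18, 40 and 16 of the 78 members in these pairs, while the medians over all genes lay between -0.032 and 0.035. OGTi replicate 1 was the highest of the OGTi libraries in 77 of 78 members (98.7%), against 37.8% of the 7612 genes of like level. OGTi replicate 4 was the lowest in 51 (65.4% against 34.4%), and lay under 0.7 of the mean of the other OGTi libraries in 39 (50.0% against 20.5%). The median coefficient of variation of a member was 11.4% over the control and 25.7% over the OGTi libraries.

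**Figure D4:**
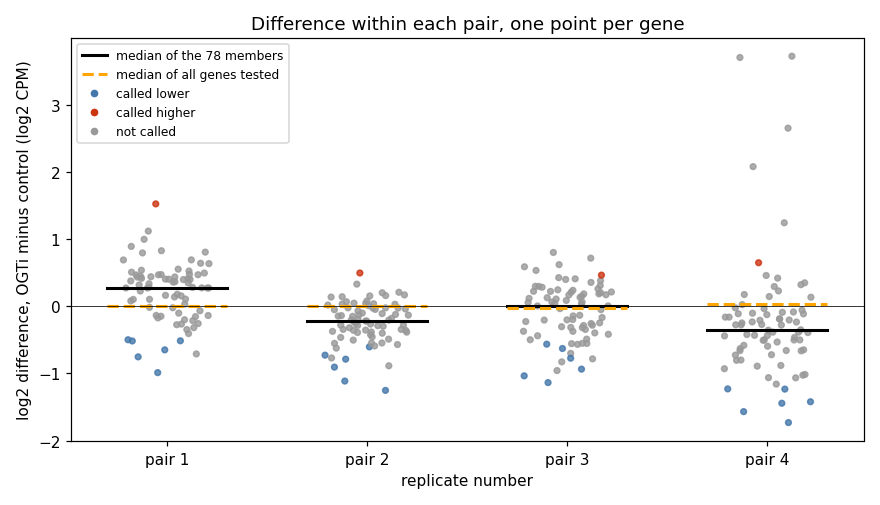
Difference in log2 CPM between the OGTi and control library of each replicate number, with a point per member, the median of the members in black and that of all genes dashed in orange. The black line lies at 0.28 in pair 1 and -0.35 in pair 4, where the grey points of highest difference are members low in control replicate 4.

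The fits without replicate 1, replicate 4 or both gave different counts of calls. Without replicate 1, 8 members fell (10.3%, beside 9.03% of all genes), now with Mrpl11 and Mrpl54, and the median was -0.15 against 0.0059 over all genes. Without replicate 4, 2 fell (2.56%, beside 5.67%), namely Mrpl19 and Mrps28, the same 2 members as without replicate 2 or replicate 3, and the median was 0.028 against -0.049. Without both, 5 fell (6.41%, beside 6.66%), namely Mrpl19, Mrpl54, Mrpl58, Mrps28 and Mrps5, with a median of -0.080 against -0.027. Mrps6 was not called in any of these 3 fits of edgeR, in which 2, 4 and 2 members were higher at an unadjusted p under 0.05. Over all 8 libraries DESeq2 called 3 members higher, Mrpl10, Mrpl41 and Mrps6, and 8 lower, against 11.9% and 12.4% of all genes.

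Read against all genes in the same fit, the members' calls were as follows. Scaling by library totals gave 0 members higher and 11 lower (6.29% and 14.6% of all genes), and upper-quartile scaling 2 and 5 (10.3% and 8.68%). With edgeR's filter on expression the counts were 2 and 6 (11.8% and 13.5%), with no filter 1 and 7 (7.13% and 9.28%) and without the pairing 1 and 5 (7.31% and 7.67%). Without replicate 2 they were 0 and 2 (7.43% and 8.53%) and without replicate 3 0 and 2 (4.38% and 5.52%), while 7.14%, 4.77% and 5.56% of all genes were called higher without replicate 1, replicate 4 and both. At an adjusted p up to 0.01, 0 members were higher and 2 lower, Mrpl19 and Mrps28, against 3.76% and 4.59% of all genes. The share of members called higher was below that of all genes in each of these fits.

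Per length, as TPM, members differed widely in level. Mrps21, of the small subunit, had the highest mean over the 8 libraries, with 444, 476, 411 and 343 TPM in control replicates 1 to 4 and 392, 399, 282 and 193 in the OGTi replicates. Mrps6 came next with 198, 284, 265 and 313 and 399, 373, 282 and 396 TPM, and Mrpl42, of the large subunit, followed with 431, 392, 361 and 330.3 and 253, 299.6, 234 and 127. The ranges of these 3 overlapped, so their order did not hold in every library, and Mrps6 was the highest member in OGTi replicates 1, 3 and 4. Mrpl19 had the lowest mean over the 8 libraries, though Mrps25 was lower in every control library. Mrpl19 had 21.5, 18.3, 17.4 and 20 TPM in the control and 7.5, 7.13, 6.53 and 4.90 in the OGTi group. Mrps25, of the small subunit, had 15.6, 17.4, 14.1 and 15.1 TPM in the control and 15.2, 14.6, 11.2 and 10.8 in the OGTi group, and Mrpl11 had 25.9, 22.1, 23.7 and 24.1 and 14.3, 14.04, 11.3 and 9.63 TPM. Mrpl19 and Mrpl11 were separated between groups on this scale and Mrps25 was not. On counts, Mrps21 gave 2478, 2571, 2144 and 1821 scaled counts in the control and 3091, 2324, 1909 and 1286 in the OGTi group (log2 fold change -0.12 ± 0.21 SE, adjusted p = 0.747, or -0.27 without replicate 1 and 0.014 without replicate 4). Mrpl42 gave 3877, 3463, 3071 and 2853 scaled counts in the control and 3226, 2851, 2571 and 1362 in the OGTi group (log2 fold change -0.46 ± 0.22 SE, adjusted p = 0.177, or -0.53 without replicate 1 and -0.26 without replicate 4). Mrps25 gave 1893, 2119, 1655 and 1806 scaled counts in the control and 2669.9, 1911, 1697 and 1587 in the OGTi group (log2 fold change 0.049 ± 0.21 SE, adjusted p = 0.907, or -0.10 without replicate 1 and 0.14 without replicate 4). None of these 3 passed the test on counts, although Mrpl42 was lower in all 4 pairs.

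Summed over the 78 members, TPM was 8982 ± 571 (SD, n = 4) in the control and 6747 ± 1135 (SD, n = 4) in the OGTi group. The control sums ran from 8415 to 9553 and the OGTi sums from 5365 to 7870.5, without overlap. Summed scaled counts overlapped, at 153667 ± 12146 (SD, n = 4) and 148394 ± 34333 (SD, n = 4). The members are short, with a median length of 1147 bases against 2859 over all genes tested. In limma on log2(TPM + 1), 23 members were called lower (29.5%, beside 17.3% of all genes) and 0 higher (beside 5.99%), where edgeR called 1 and DESeq2 3. With 0.1 added to TPM in place of 1 the counts were 0 and 23 (6.19% and 17.4%). With the trend of fold change over gene length removed from the count fit, 11 were lower (14.1%, beside 9.65%) and 3 higher (3.85%, beside 10.6%), and with replicate 4 left out as well the counts were 1 and 5 (6.57% and 6.30%) higher and lower. The median of the members minus that of all genes was -0.047 on counts, -0.20 with the length trend removed, -0.11 when replicate 4 was left out of that fit, and -0.26 and -0.13 on TPM with 1 and 0.1 added. All 6 members that fell in the count fit were among those called on TPM, and how much of the difference between units comes from length was not tested.

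The rRNAs of the mitoribosome differed in their counts from the mRNAs that encode its proteins. mt-Rnr1 and mt-Rnr2 are the small and the large rRNA, encoded in mitochondrial DNA, and they were looked up after other values had been seen. mt-Rnr1 gave 2716, 3248, 3311 and 5146 scaled counts in control replicates 1 to 4 and 29221, 6579.7, 15853 and 40974 in OGTi replicates 1 to 4. Each OGTi library was above each control library, by a margin that ranged widely between pairs (log2 fold change 2.44 ± 0.36 SE, adjusted p = 0.00181). mt-Rnr2 gave 13190.1, 13308, 17844 and 22941 scaled counts in control replicates 1 to 4 and 72793, 27238, 87865 and 186674 in OGTi replicates 1 to 4, again with no overlap and with OGTi replicate 4 the highest (log2 fold change 2.22 ± 0.30 SE, adjusted p = 0.00114). Both stayed higher in all 16 alternatives run, with adjusted p-values up to 0.0150 and 0.00974. The libraries were enriched for polyadenylated RNA, so these counts reflect the part of the rRNA carried through that step, and the mitochondrially encoded proteins were not analysed here.

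**Figure D5:**
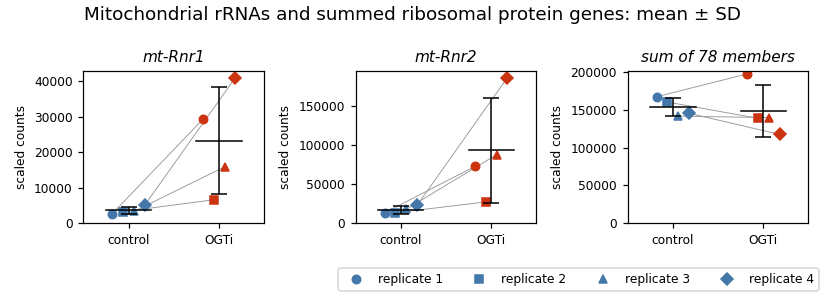
Scaled counts (vertical axes, from 0) of mt-Rnr1, mt-Rnr2 and the sum of the 78 members in each library, with mean and SD in black and lines joining replicate numbers. The rRNA groups are apart, while the sums of the members overlap and OGTi replicate 4, highest for both rRNAs, is lowest for the members.

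Of 27 listed factors that assemble the mitoribosome, 21 did not pass the test, 4 rose and 2 fell (22.2%, beside 18.4% of all genes), with a median of 0.19 against 0.0053 (0.20 without replicate 1 and 0.18 without replicate 4). Mrm1, which methylates the large rRNA, gave 436, 466, 382 and 276 scaled counts in the control and 923, 891, 1003 and 879 in the OGTi group. It was higher in every OGTi library (log2 fold change 1.27 ± 0.23 SE, adjusted p = 0.00458). Ngrn, needed for the large rRNA to be stable, gave 252, 329, 385 and 364 scaled counts in the control and 1107, 603, 824 and 821 in the OGTi group (log2 fold change 1.32 ± 0.26 SE, adjusted p = 0.00750). The others that rose, named after their values were seen, were Mterf3, a regulator of the large subunit's formation, and Gtpbp6, a GTPase of ribosome recycling and assembly (log2 fold changes 0.70 and 0.89, adjusted p = 0.0435 and 0.0440). Mettl17, which acts in the assembly of the small subunit, fell, with 227, 198, 138 and 206 scaled counts in the control and 84.0, 89.3, 65.1 and 57.4 in the OGTi group (log2 fold change -1.38 ± 0.28 SE, adjusted p = 0.00748). Mrm2, another methylase of the large rRNA, fell as well, with 642, 659.5, 404 and 523 scaled counts in the control and 424, 395, 189 and 155 in the OGTi group (log2 fold change -1.04 ± 0.26 SE, adjusted p = 0.0206). Mrm1 and Ngrn passed the test in all 16 alternatives, Mettl17 in 15 and Mrm2 in 12. Without replicate 4 the list held 2 higher and 1 lower (beside 4.77% and 5.67% of all genes). Without replicate 1 it held 2 higher and 2 lower (beside 7.14% and 9.03%).

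Subunits of the mitoribosome that carry other symbols were measured beside the members. Dap3, Ptcd3, Chchd1 and Aurkaip1 of the small and Gadd45gip1 of the large subunit had log2 fold changes of 0.21 ± 0.21, -0.60 ± 0.25, -0.25 ± 0.21, -0.40 ± 0.21 and -0.42 ± 0.20. edgeR called 0 of the 5, with 1 at an unadjusted p under 0.05, DESeq2 called 0 and limma on TPM 3 lower with 1 added and 4 with 0.1 added. In these and the following lists, the share of all genes that limma called lower was 17.3% with 1 and 17.4% with 0.1 added. Of the 14 translation factors, which start, extend and end the chains, edgeR called 0 (median -0.11, 2 at an unadjusted p under 0.05), DESeq2 called 1 higher and limma on TPM 3 lower. Tufm, the elongation factor that delivers tRNA, had a log2 fold change of -0.26 ± 0.20 (adjusted p = 0.436).

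Of 15 genes that process mitochondrial RNA, 3 fell and 0 rose (20% called, beside 18.4% of all genes, median -0.21, or -0.13 without replicate 1 and -0.19 without replicate 4). Pnpt1, an RNA-degrading phosphorylase, gave 1524, 1175, 1521 and 1976 scaled counts in the control and 367, 815, 910.4 and 966 in the OGTi group (log2 fold change -1.08 ± 0.28 SE, adjusted p = 0.0233). Fastkd5, which acts on mRNAs that lack flanking tRNAs, and Prorp, which trims the 5′ ends of tRNAs, had log2 fold changes of -1.54 ± 0.44 (adjusted p = 0.0338) and -0.87 ± 0.26 (0.0421). Without replicate 4 none of the 3 passed the test in edgeR, with log2 fold changes of -1.09 (adjusted p = 0.0847), -1.63 (adjusted p = 0.101) and -0.80 (adjusted p = 0.147). Without replicate 1 they were -0.77 (adjusted p = 0.0381), -0.96 (adjusted p = 0.0297) and -0.67 (adjusted p = 0.1004). Of 10 genes of mitochondrial DNA upkeep and transcription, 1 rose (beside 8.13% of all genes), Mgme1, an exonuclease for mitochondrial DNA, with 709, 632, 577 and 390.2 scaled counts in the control and 2220.3, 1605, 2224 and 1956 in the OGTi group. Its groups were far apart (log2 fold change 1.81 ± 0.24 SE, adjusted p = 0.00102), and it passed the test in all 16 alternatives.

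Among 12 mitochondrial chaperones and proteases, 2 rose and 1 fell (25.0% called, beside 18.4%, median 0.38, or 0.33 without replicate 1 and 0.34 without replicate 4). Hspe1, the co-chaperonin of Hsp60, gave 9186, 6769.6, 5186 and 7741 scaled counts in the control and 19179.8, 9029, 12974 and 20425 in the OGTi group (log2 fold change 1.05 ± 0.22 SE, adjusted p = 0.00828). The matrix protease Lonp1 had a log2 fold change of 1.20 ± 0.30 (adjusted p = 0.0199) and the inner-membrane protease Yme1l1 -0.83 ± 0.23 (0.0324). Lonp1 passed the test in 9 and Yme1l1 in 11 of 16 alternatives. Without replicate 4 the list held 1 higher and 0 lower (beside 4.77% and 5.67% of all genes). Of the 9 nuclear regulators of mitochondrial genes, edgeR called 0, with 2 at an unadjusted p under 0.05, DESeq2 called 0 and limma on TPM 2 lower. Nrf1 had -0.60 ± 0.28, Gabpa -0.61 ± 0.24 and Yy1 -0.12 ± 0.22, and 8 of the 9 values were below 0 (median -0.41, or -0.18 without replicate 1 and -0.29 without replicate 4).

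Beside the members stand the ribosome of the cytosol and the nuclear-encoded part of oxidative phosphorylation. Of 84 cytosolic ribosomal protein genes, edgeR called 0, with 5 at an unadjusted p under 0.05, DESeq2 called 0 and limma on TPM 8 lower with 1 added and 9 with 0.1 added. Their median log2 fold change was 0.10, 0.16 without replicate 4 and -0.16 without replicate 1, when 4 of 84 were called lower (beside 9.03% of all genes). Of 84 nuclear-encoded subunits of oxidative phosphorylation, 1 rose and 2 fell (3.57% called, beside 18.4%). Their median was 0.078, and -0.056 without replicate 1 and 0.17 without replicate 4. Cox5a of complex IV had 1.01 ± 0.30 (adjusted p = 0.0427), Sdha of complex II -0.62 ± 0.18 (0.0393) and Atp5a1 of the ATP synthase -0.60 ± 0.18 (0.0471). Without replicate 4 these 3 were 0.62 (adjusted p = 0.105), -0.53 (adjusted p = 0.139) and -0.52 (adjusted p = 0.149), and without replicate 1 1.13 (adjusted p = 0.0702), -0.59 (adjusted p = 0.0486) and -0.70 (adjusted p = 0.0215). Limma on TPM called 0 of the list higher and 15 of 84 lower, and the count fit with the length trend removed 0 and 8 (beside 10.6% and 9.65% of all genes). In pairs 1 to 4 the median differences in log2 CPM were 0.28, -0.22, 0.0056 and -0.35 for the members, 0.79, -0.20, -0.15 and -0.11 for the cytosolic ribosomal proteins and 0.49, -0.076, -0.0034 and -0.21 for the oxidative phosphorylation subunits. Pair 1 was the highest pair in each of the 3 groups, with 54 of 78, 82 of 84 and 75 of 84 genes above 0. On TPM with 1 added, limma called 2 and 2 assembly factors, 0 and 5 RNA-processing genes, 1 and 1 genes of mitochondrial DNA and 1 and 2 chaperones and proteases higher and lower.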

How the data were processed

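RNA was measured in 8 libraries, whose titles give the group and the replicate number. Stranded, paired-end libraries followed oligo-dT enrichment, and reads were aligned with Bowtie2 2.3.5.1 and quantified with RSEM 1.3.1 on mm39 (GRCm39), as stated by the labels and methods. Transcripts in the tables bear RefSeq identifiers, although GENCODE is the annotation named. The authors deposited RSEM's expected counts and TPM for each gene. A further deposited table holds the authors' own comparison by DESeq2 1.36.0 (counts, normalized counts, fold changes, p-values) and was not used. At most 1 member had a fractional count in a library, and the members that share exonic bases with a gene on the same strand are named in the report, except Mrpl51, which shares 87 with Mir3098.

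Expected counts were rounded and tested with edgeR 4.0.16 in R 4.3.3 (TMM scaling, glmQLFit and glmQLFTest, a total of at least 10 counts, replicate number as a block). P-values were adjusted by Benjamini-Hochberg over all 19963 genes, and a gene at an adjusted p of at most 0.05 was called changed. The SE is the size of the log2 fold change divided by the root of F. A scaled count is the count over the TMM-adjusted size of its library, multiplied by the mean size. The study's methods pair treated and control cultures of one number. Deviations from the group means correlated at 0.160, 0.224, 0.105 and 0.318 across genes for same-numbered libraries and from -0.312 to 0.208 for others. DESeq2 1.42.0 and limma 3.58.1 (on log2 TPM with 1 or 0.1 added) were alternatives, as were other scalings and filters, a length-trend offset (loess, span 0.5), no block, an adjusted p of at most 0.01 and fits without each replicate. The fit was also run on simulated counts, which were set to vary less between libraries than these data, and no result here rests on that run. Totals of 30068876 to 37372420 expected counts set the depth.

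The members and the other gene lists were chosen with earlier results of these data known. Named with values in every sample were the called members, the 3 of highest and 3 of lowest mean TPM, the 3 with the largest and 3 with the smallest change among those not called, and a panel of 27 members of known role. Of the other lists, called genes were named, at most 4 a list by adjusted p, and those that define a list. Gene positions came from GENCODE M39 on GRCm39, where all 78 members matched. 1 translation factor was looked up under its older symbol.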

Additional observations from a re-analysis of the deposited data

Results flagged for a closer look

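In 7 of 158 groups of 4 libraries examined (each of the 78 members and their summed TPM, in each group), the most extreme library lay so far from its nearest neighbour, relative to the range of the group, that Dixon's critical value for 4 samples was passed. Chance alone gives about 7.90 such groups. OGTi replicate 1 was the high library in 5 of them, in scaled counts. It had 5376 against 3156 to 3206 in the other OGTi libraries for Mrpl20, 2784 against 1596 to 1721 for Mrpl39, 1402 against 674 to 728 for Mrpl52, 1435 against 951 to 1026 for Mrpl53 and 1870.05 against 963 to 1059 for Mrps26. Mrpl20 and Mrpl39 are proteins of the large subunit, the former with a bacterial counterpart. Control replicate 4 was the low library for Mrps26, with 159.9 against 1288 to 1461 in the other controls, and the high library for Mrps2, with 1894 against 1413 to 1492. Mrps30 and Mrps24, whose values in control replicate 4 were lower still, did not meet this measure because their other controls spread further. None of these 6 genes was called changed in the edgeR fit as reported. Mrpl53 was called lower with the length trend removed (adjusted p = 0.0255) and in limma on TPM with either value added.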

How the results depend on the processing

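The 7 calls among the members kept their direction in all 16 alternatives. Mrps28 passed the test in 16 of them (adjusted p up to 0.0499), Mrpl19 in 15 (up to 0.0678), Mrpl58 in 12 (up to 0.104), Mrps5 in 12 (up to 0.102), Mrpl37 in 11 (up to 0.0902), Mrpl27 in 8 (up to 0.157) and Mrps6 in 6 (up to 0.112). The members called higher, 1 as reported, were 3 with DESeq2, 2 with edgeR's filter on expression, 2 with upper-quartile scaling, 3 with the length trend removed, and 0 with library totals, on TPM with either value added, without replicates 1 and 4, and with a threshold of 0.01. Those called lower, 6 as reported, were 11 with the length trend removed, 11 with library totals, 23 on TPM with either value added and 2 with a threshold of 0.01. The median log2 fold change of the members moved to -0.37 and -0.36 on TPM with 0.1 and 1 added. Library totals moved the median of all genes to -0.19, upper-quartile scaling to 0.13, dropping the filter to 0.14 and TPM with 0.1 added to -0.23, and the members' median relative to it was -0.049, -0.043, -0.19 and -0.13.

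Over all genes, 3666 changed (1623 higher, 2043 lower). Genes called lower were 3473 and 3456 on TPM with 0.1 and 1 added. Without replicates 1 and 4, 2177 changed (991 higher, 1186 lower), without replicate 4 and with the length trend removed 2411 (1180 lower), and with a threshold of 0.01 1668 (751 higher, 917 lower). Leaving out each replicate in turn gave 1905 to 3124 genes, 843 to 1433 higher and 1062 to 1744 lower. For the members it gave 0 to 0 higher, 2 to 8 lower and a median from -0.15 to 0.031. Without the replicate block 2991 genes changed, with 1 member higher, 5 lower and a median of -0.032, and Mrpl27 was the member lost. Split by direction, upper-quartile scaling gave 2051 higher and 1732 lower genes, and library totals 1256 and 2911. The causes of these shifts were not tested.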
